A study of Mus musculus with 5 samples.

Results

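The interleukin-6 (IL-6) family axis is described here through 10 genes: the cytokine genes Il6 and Lif, the receptor genes Il6st, Osmr and Lifr, the transcription factor genes Stat3, Cebpb and Cebpd, the feedback inhibitor Socs3 and the kinase gene Pim1. They were taken by symbol from the array's annotation, as all probe sets that carry exactly 1 of these symbols. The 10 genes had 12 probe sets, among 22180 genes with such probe sets in all. Each of the 10 had a log2 signal at or above the array median on at least 1 of 5 arrays, as 12317 genes did, and those 12317 are called tested genes below. Socs3 and Pim1 had 2 probe sets each, and the brighter was used unless the dimmer is named.

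The cells were primary mouse embryonic fibroblasts without the endogenous STING gene (STING-/-), into which the R284S variant of STING had been put back. R284S is a gain-of-function form of STING, the adaptor of cytosolic DNA sensing. For 9 hours the cells received Compound C, Doxorubicin, GSK 690693, Tofacitinib or Vehicle, and total RNA of each treatment was hybridised to 1 array. Tofacitinib blocks JAK kinases, which carry the signal of the receptors described here, and GSK 690693 blocks the AKT kinases. Both Compound C and GSK 690693 also act on the energy sensor AMPK, Compound C further inhibits BMP receptors, and doxorubicin damages DNA through topoisomerase II. The doses and the vehicle's composition were not used here. All 5 arrays carry R284S, so no value here shows what the variant itself does. The labels name no separate cultures, and with 1 array per treatment no difference has an error, a test or a p-value.

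Cytokines of the IL-6 family signal through receptor complexes that share the chain gp130, the product of Il6st. IL-6 binds its own receptor chain before it joins gp130, whereas leukaemia inhibitory factor (LIF) and oncostatin M use gp130 together with the chains encoded by Lifr and Osmr. The receptors carry JAK kinases, which phosphorylate STAT3. STAT3 then induces genes such as Socs3, whose product inhibits gp130 signalling, and Cebpd and Pim1, and in many cells also its own gene. Fibroblasts are known as strong producers of IL-6, and C/EBP beta and C/EBP delta take part in the induction of Il6.

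Values are log2 signals, or differences of log2 signals, on the scale the authors deposited. The median signal of the tested genes lay between 7.16 and 7.39 on the 5 arrays. All 10 fibroblast markers examined passed the filter, with log2 signals between 7.30 and 12.68. Of the markers of other cells, 2 of 7 for leukocytes, 2 of 4 for endothelium and 1 of 3 for epithelium passed. Ptprc, the gene of the pan-leukocyte marker CD45, lay between 3.65 and 3.86 and the epithelial gene Epcam between 3.59 and 3.92. Cd68 read 7.63 with doxorubicin and 6.56 with vehicle. In the same order Csf1r read 5.27 and 4.93, Itgam 4.42 and 4.22, Lyz2 4.35 and 3.97, and Cd3e 5.06 and 5.02. Ptprc was lower with doxorubicin, at 3.65 against 3.86 with vehicle, and Adgre1 read 3.6 with both. The log2 signals of the 7 leukocyte markers summed to 33.98 with doxorubicin and 32.16 with vehicle, and most of these markers did not pass the filter. The sums were 32.8 with Compound C, 32.69 with GSK 690693 and 32.11 with tofacitinib. Cd68 and Itgam were highest with doxorubicin, but Csf1r was highest with GSK 690693 (5.52) and Lyz2 with Compound C (4.53). The part of these marker differences in the doxorubicin values below was not tested. In bulk RNA, fewer cells that express a gene and less RNA per cell cannot be told apart.

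Tofacitinib was the treatment with the lowest signals of Osmr, Socs3, Stat3 and Il6st, and doxorubicin the treatment with the lowest signals of Cebpb, Cebpd, Pim1 and Lif. Compound C gave the highest signals of Stat3, Cebpb, Cebpd, Socs3 and Lif. With tofacitinib, 5 of the 10 members were at least 1.5-fold lower than with vehicle and 0 at least 1.5-fold higher, while 2.0% of all tested genes were lower and 2.66% higher by that much. At 2-fold the tofacitinib counts were 3 members lower and 0 higher, beside 0.414% and 0.0487% of tested genes. The median difference of the members was −0.47 with tofacitinib, beside 0.09 over all tested genes. The members were chosen with earlier results of these data known. For every compound, their counts and medians beside those of all tested genes are therefore descriptions and no independent support for a response.

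Doxorubicin had 5 members at least 1.5-fold lower and 0 higher, but here 14.2% of tested genes were lower and 11.5% higher. At 2-fold, 3 members were lower and 0 higher with doxorubicin, beside 6.45% and 1.33% of tested genes. The members' median was −0.46, beside 0.05 over all tested genes. With Compound C, 4 members were at least 1.5-fold higher and 0 lower, beside 6.06% higher and 9.99% lower of tested genes. Only Cebpd of the members reached 2-fold with Compound C, upwards, where 1.30% of tested genes were higher and 2.52% lower. The median of the members was 0.52 with Compound C and that of all tested genes −0.02. With GSK 690693, Pim1 was at least 1.5-fold higher and Il6 at least 1.5-fold lower, beside 2.40% and 3.21% of tested genes in those directions. At 2-fold GSK 690693 had Il6 lower and no member higher, beside 0.601% and 0.187% of tested genes, and the median was 0.19 for the members and 0.04 for all tested genes.

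**Figure D1:**
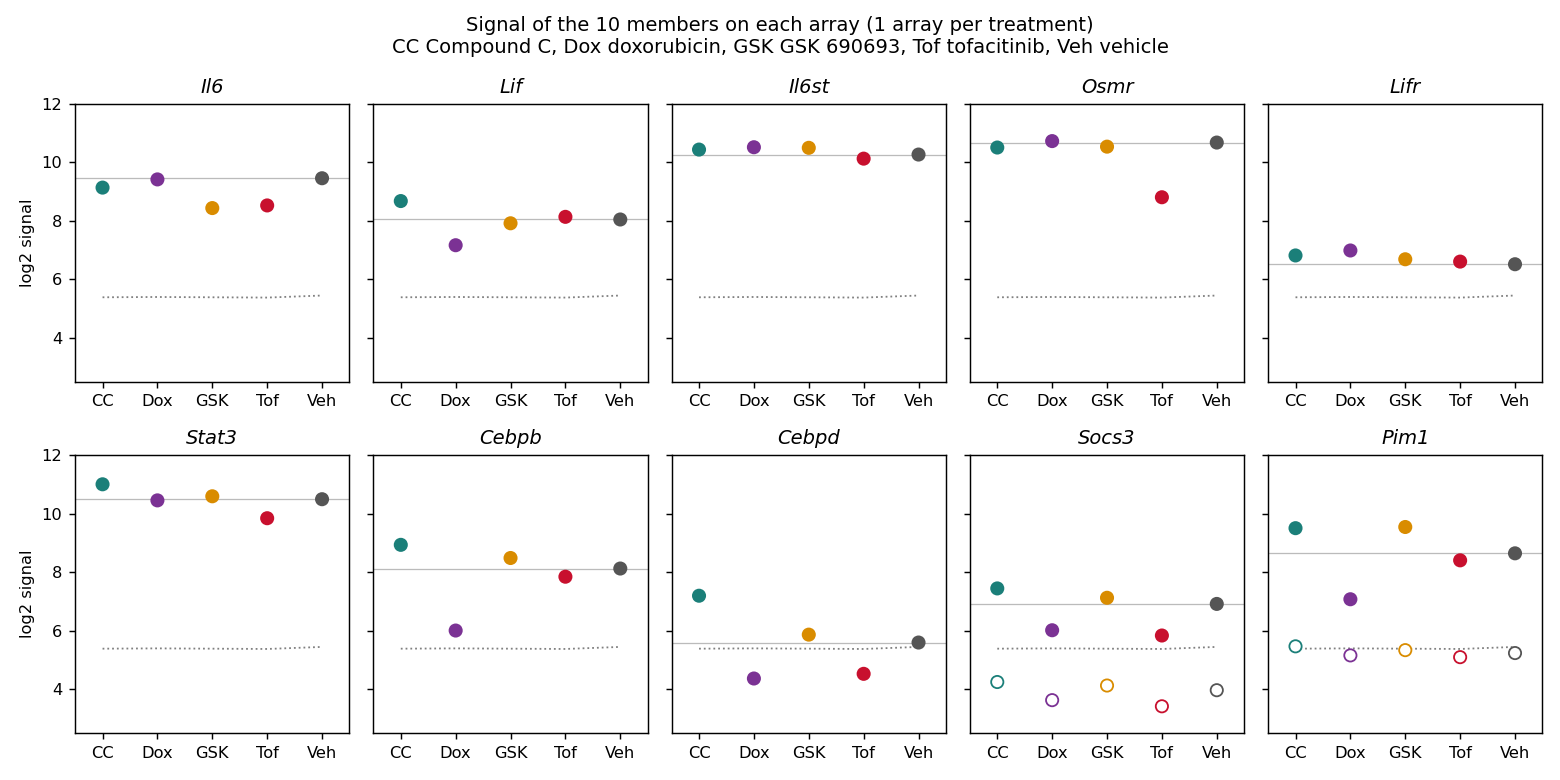
Log2 signal (vertical axis) of the 10 members on the 5 arrays, with the compounds from left to right and vehicle at the right. Filled points are the probe set used, open points a dimmer probe set of the same gene, the grey line the vehicle level and the dotted line the median of each array over single-symbol probe sets. Osmr stands at 8.80 with tofacitinib and between 10.50 and 10.72 on the other 4 arrays.

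The promoters of the members that read at least 1.5-fold lower with tofacitinib are shown because these genes read low together on that array. RefSeq promoters, which run from 250 bases before to 50 bases after a transcription start, were found for 9 of the 10 members and for 4 of these 5, the exception being Cebpd. The sequences are those of the mouse assembly GRCm38.p6, 5′ to 3′ on the strand of the gene. Capitals mark matches, on either strand, to TTCNNNGAA (STAT factors), TTNNGNAA (C/EBP factors), GGGANNTTC (NF-kB), TGANTCA (AP-1), TGACG (the CRE core, bound by CREB and ATF factors) and TATAAA (the TATA box). No matches overlapped in these 4 sequences, and the motifs were chosen after the sequences had been seen.
Osmr (chr15:6874264-6874563, minus strand): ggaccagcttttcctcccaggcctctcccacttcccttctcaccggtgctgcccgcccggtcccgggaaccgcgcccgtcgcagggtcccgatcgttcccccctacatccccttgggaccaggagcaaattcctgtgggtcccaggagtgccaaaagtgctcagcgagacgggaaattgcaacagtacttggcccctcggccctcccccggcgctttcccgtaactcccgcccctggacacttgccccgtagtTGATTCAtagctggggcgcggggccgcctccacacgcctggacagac
Socs3 (chr11:117969317-117969616, minus strand): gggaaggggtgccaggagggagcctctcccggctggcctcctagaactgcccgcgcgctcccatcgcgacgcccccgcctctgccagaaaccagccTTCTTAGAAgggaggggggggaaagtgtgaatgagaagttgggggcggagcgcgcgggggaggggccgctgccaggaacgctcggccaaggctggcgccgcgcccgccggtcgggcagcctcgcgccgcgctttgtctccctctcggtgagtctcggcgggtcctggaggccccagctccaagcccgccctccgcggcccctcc
Stat3 (chr11:100939491-100939790, minus strand): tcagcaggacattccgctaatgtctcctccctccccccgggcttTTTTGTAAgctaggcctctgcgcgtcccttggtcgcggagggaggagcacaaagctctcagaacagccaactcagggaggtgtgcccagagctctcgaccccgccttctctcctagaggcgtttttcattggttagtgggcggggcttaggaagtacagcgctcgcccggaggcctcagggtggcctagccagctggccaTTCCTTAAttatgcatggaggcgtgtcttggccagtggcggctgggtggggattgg
Il6 (chr5:30012864-30013163, plus strand): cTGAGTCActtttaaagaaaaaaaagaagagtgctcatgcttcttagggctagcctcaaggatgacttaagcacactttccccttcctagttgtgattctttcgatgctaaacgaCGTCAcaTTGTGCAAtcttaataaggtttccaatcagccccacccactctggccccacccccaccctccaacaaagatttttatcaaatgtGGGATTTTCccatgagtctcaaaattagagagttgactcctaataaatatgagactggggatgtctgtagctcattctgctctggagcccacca

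In the Socs3 sequence the STAT motif was matched once, from base −154 to −146 counted from the start as base 1, and 8.30% of the 32851 promoters in the table hold such a match. The Il6 sequence held an AP-1 match from −249 to −243, a CRE core from −135 to −131, a C/EBP match from −128 to −121 and an NF-kB match from −44 to −36. All 4 kinds are textbook elements of the Il6 promoter. The shares of all promoters with a match were 7.81% for AP-1, 20.8% for the CRE core, 40.7% for C/EBP and 3.94% for NF-kB. Osmr held an AP-1 match from 4 to 10, just inside the transcript. Stat3 held C/EBP matches from −206 to −199 and from −6 to 2, which is the most common of these motifs. TATAAA, found in 13.6% of all promoters, was not among the letters of these 4 windows. Members that were not 1.5-fold lower with tofacitinib also held matches, AP-1 in Lif and CRE core and TATA box in Cebpb. The promoters of Il6st, Lifr and Pim1 held none. A match is a run of letters and not evidence of binding.

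**Figure D2:**
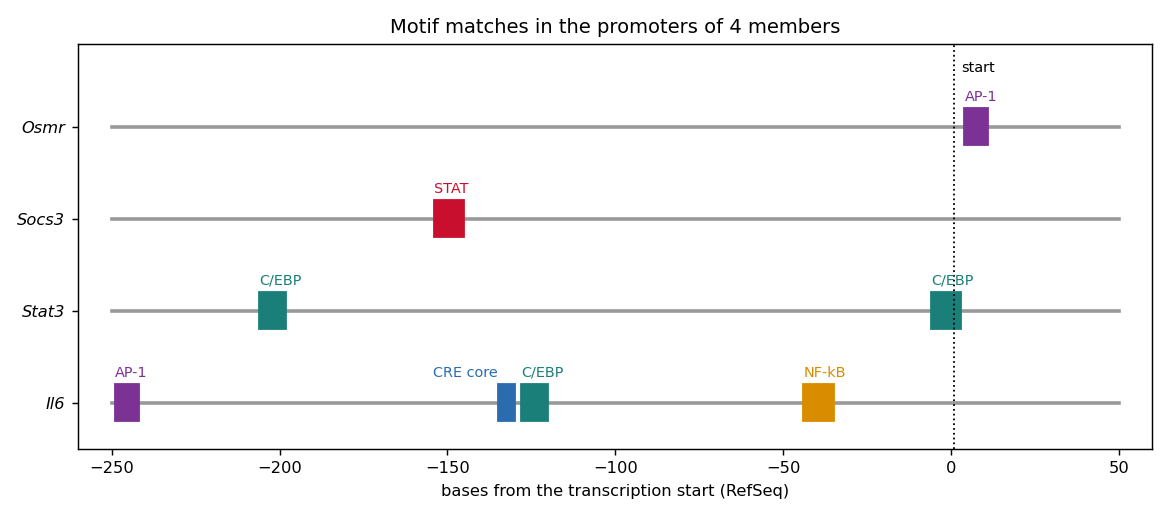
Positions of the motif matches in the 4 promoters, in bases from the RefSeq transcription start (horizontal axis, dotted line at the start), one gene per row. Coloured boxes are matches, and the Il6 row holds 4 of them against 1 for Osmr, 1 for Socs3 and 2 for Stat3.

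Among the ligands, Il6 encodes the cytokine that names the family. Its log2 signal was 9.13 with Compound C, 9.41 with doxorubicin, 8.43 with GSK 690693, 8.52 with tofacitinib and 9.45 with vehicle. The AKT and the JAK inhibitor stood apart at the low end, and the other 3 arrays lay within 0.32 of one another. Il6 was 2.03-fold lower with GSK 690693 (difference −1.02) and 1.91-fold lower with tofacitinib (−0.93), the 63rd and 57th lowest differences of 12317 in those comparisons. The GSK 690693 and tofacitinib arrays differed from each other by 0.09 for Il6. With doxorubicin, the treatment with the lowest Cebpb and Cebpd, Il6 differed from vehicle by −0.04. Whether Il6 depends on either factor in these cells was not tested. With the other 4 arrays as the reference, by their median, Il6 differed by 0.59 with doxorubicin and by 0.17 with Compound C, in place of −0.04 and −0.32 against vehicle.

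Lif encodes leukaemia inhibitory factor, which keeps mouse embryonic stem cells undifferentiated. Its log2 signal was 8.67 with Compound C, 7.16 with doxorubicin, 7.91 with GSK 690693, 8.13 with tofacitinib and 8.04 with vehicle. Lif thus read 1.55-fold higher with Compound C and 1.84-fold lower with doxorubicin, and lay within 0.13 of vehicle with the other compounds. Of the neighbouring cytokine gene Osm (oncostatin M), with no protein-coding gene between it and Lif in RefSeq, the signal was below the filter. It ran between 4.51 and 4.83 on the 5 arrays.

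The receptor genes differed among themselves. Osmr, the oncostatin M receptor chain, had a log2 signal of 10.50 with Compound C, 10.72 with doxorubicin, 10.53 with GSK 690693, 8.80 with tofacitinib and 10.67 with vehicle. Tofacitinib stands alone in this row, while the other 3 compounds lay within 0.17 of vehicle. Osmr was 3.66-fold lower with tofacitinib than with vehicle (−1.87), the 8th lowest difference of 12317 tested genes. Against the other compound arrays tofacitinib differed by −1.70 from Compound C, −1.92 from doxorubicin and −1.73 from GSK 690693, so the low value does not rest on the vehicle array. Under the 7 other ways of computing it, the difference stayed between −1.91 and −1.80. The changes of filter and of probe set rule among them could not move it, because Osmr has a single probe set and passed each filter.

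Il6st, which encodes the shared chain gp130, had the narrowest range of the members. It read 10.43 with Compound C, 10.51 with doxorubicin, 10.49 with GSK 690693, 10.12 with tofacitinib and 10.26 with vehicle, a range of 0.39. Tofacitinib had the lowest value, 0.14 below vehicle, a difference smaller than the standard deviation of 0.295 over all tested genes in that comparison. Lifr, the LIF receptor chain, read 6.81 with Compound C, 6.98 with doxorubicin, 6.68 with GSK 690693, 6.60 with tofacitinib and 6.51 with vehicle. Every compound array was above vehicle for Lifr, by at most 0.47. Osmr and Lifr lie next to each other on chromosome 15, with 0 protein-coding genes between their starts in RefSeq, and with tofacitinib they differed from vehicle by −1.87 and 0.09.

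Stat3 encodes the main signal-activated transcription factor of the axis. It was bright on all arrays, with log2 signals of 11.00 with Compound C, 10.45 with doxorubicin, 10.59 with GSK 690693, 9.84 with tofacitinib and 10.49 with vehicle. The tofacitinib value was 1.57-fold lower than vehicle (−0.65, the 187th lowest of 12317) and 2.23-fold lower than Compound C. Compound C was 0.51 above vehicle, and doxorubicin and GSK 690693 lay within 0.10 of it. With each array centred on its median, the tofacitinib difference was −0.58, just short of 1.5-fold. The adjacent gene Stat5a, named here for its position, read 6.64 with tofacitinib and 6.65 with vehicle.

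Cebpb and Cebpd encode C/EBP beta and C/EBP delta, leucine zipper factors of the acute phase response. Cebpb read 8.93 with Compound C, 6.0 with doxorubicin, 8.48 with GSK 690693, 7.84 with tofacitinib and 8.12 with vehicle. Doxorubicin was apart from the other 4 arrays, 4.35-fold below vehicle (−2.12, the 66th lowest of 12317), and Compound C was 1.75-fold above vehicle. Cebpd read 7.19 with Compound C, 4.36 with doxorubicin, 5.86 with GSK 690693, 4.52 with tofacitinib and 5.59 with vehicle. Compound C was 3.03-fold above vehicle for Cebpd, the 34th highest difference of 12317, whereas doxorubicin was 2.35-fold and tofacitinib 2.10-fold below it. The doxorubicin and tofacitinib signals of Cebpd lay below the array medians of 5.39 and 5.37. No detection call was used, so whether these dim values stood above background is unknown. With 32 added to the linear signal, the tofacitinib difference of Cebpd was −0.55 in place of −1.07, the doxorubicin difference −0.61 in place of −1.23 and the Compound C difference 1.15 in place of 1.60.

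Socs3, the inhibitor that binds gp130 and JAK kinases, followed the same order of treatments as Stat3. Its log2 signal was 7.44 with Compound C, 6.01 with doxorubicin, 7.12 with GSK 690693, 5.83 with tofacitinib and 6.91 with vehicle. It read 2.11-fold lower with tofacitinib (−1.08, the 38th lowest of 12317) and 1.87-fold lower with doxorubicin (−0.90). The dimmer probe set of Socs3 read 4.24 with Compound C, 3.62 with doxorubicin, 4.12 with GSK 690693, 3.41 with tofacitinib and 3.96 with vehicle. Those values lay below the array median throughout, had the same order as the brighter probe set, and differed from vehicle by −0.55 with tofacitinib and −0.34 with doxorubicin.

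Pim1 encodes a serine/threonine kinase that promotes survival and is induced by STAT factors. It read 9.50 with Compound C, 7.07 with doxorubicin, 9.54 with GSK 690693, 8.40 with tofacitinib and 8.64 with vehicle. Compound C stood above vehicle by 1.82-fold and GSK 690693 by 1.87-fold, and the GSK 690693 difference was the 44th highest of 12317. Doxorubicin was 2.97-fold lower than vehicle (−1.57). The dimmer probe set of Pim1 ran only between 5.09 and 5.46, and its differences from vehicle ran from −0.14 (tofacitinib) to 0.23 (Compound C). With the mean of both probe sets, Pim1 was 0.55 and 0.50 above vehicle with Compound C and GSK 690693, short of 1.5-fold, and its doxorubicin difference was −0.83 in place of −1.57.

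**Figure D3:**
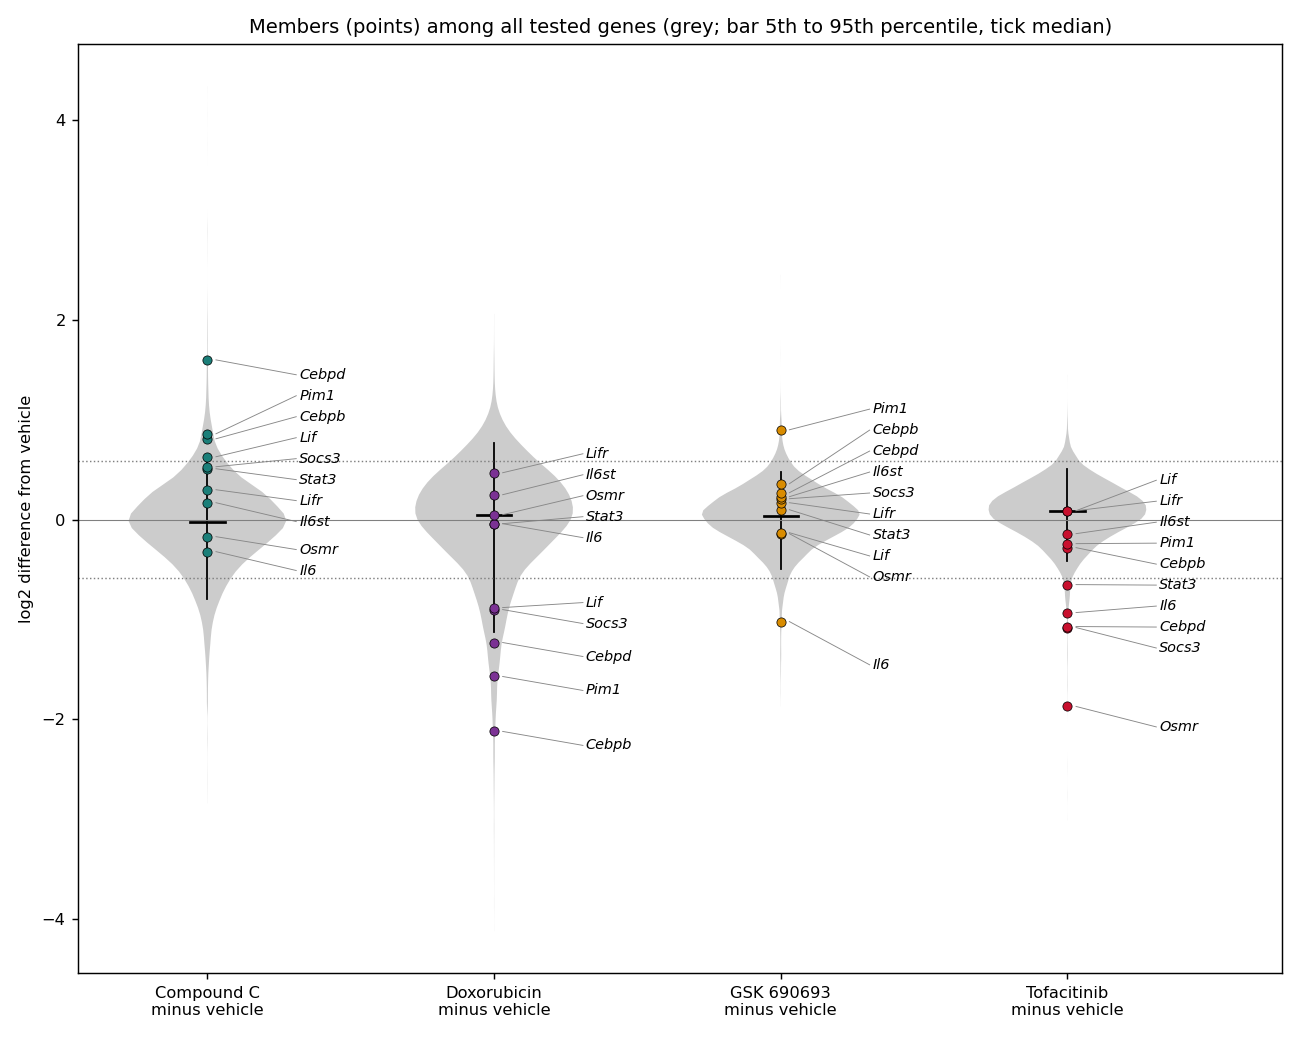
Log2 difference from vehicle (vertical axis) of the 10 members (points) with each compound, over the distribution of all 12317 tested genes (grey, with a bar from the 5th to the 95th percentile and a tick at the median). Dotted lines mark 1.5-fold. With tofacitinib Osmr lies at −1.87 and 4 other members lie below −0.58, and with Compound C Cebpd lies at 1.60.

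Comparisons between compounds do not use the vehicle array. The GSK 690693 and tofacitinib arrays were the closest pair of the series, with a standard deviation of 0.258 over the log2 differences of tested genes. For tofacitinib minus GSK 690693, Osmr (−1.73) was the 4th lowest of 12317 differences, Cebpd (−1.34) the 7th, Socs3 (−1.29) the 9th and Pim1 (−1.14) the 17th. Stat3 followed at −0.75, Cebpb at −0.64 and Il6st at −0.37, ranking 63rd, 101st and 459th. The ligands and Lifr lay near 0 in this pair, with Il6 at 0.09, Lif at 0.22 and Lifr at −0.08. For Pim1 the pair differed mostly through GSK 690693, which lay 0.9 above vehicle, while tofacitinib differed from vehicle by −0.24. The dimmer probe set of Pim1 read 5.09 with tofacitinib and 5.33 with GSK 690693. The tofacitinib signal of Cebpd, 4.52, lay below the array median. The plot of tofacitinib against GSK 690693 shows the receptor gene Osmr, the transcription factor gene Cebpd, Socs3 and Pim1 below the line of 2-fold.

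**Figure D4:**
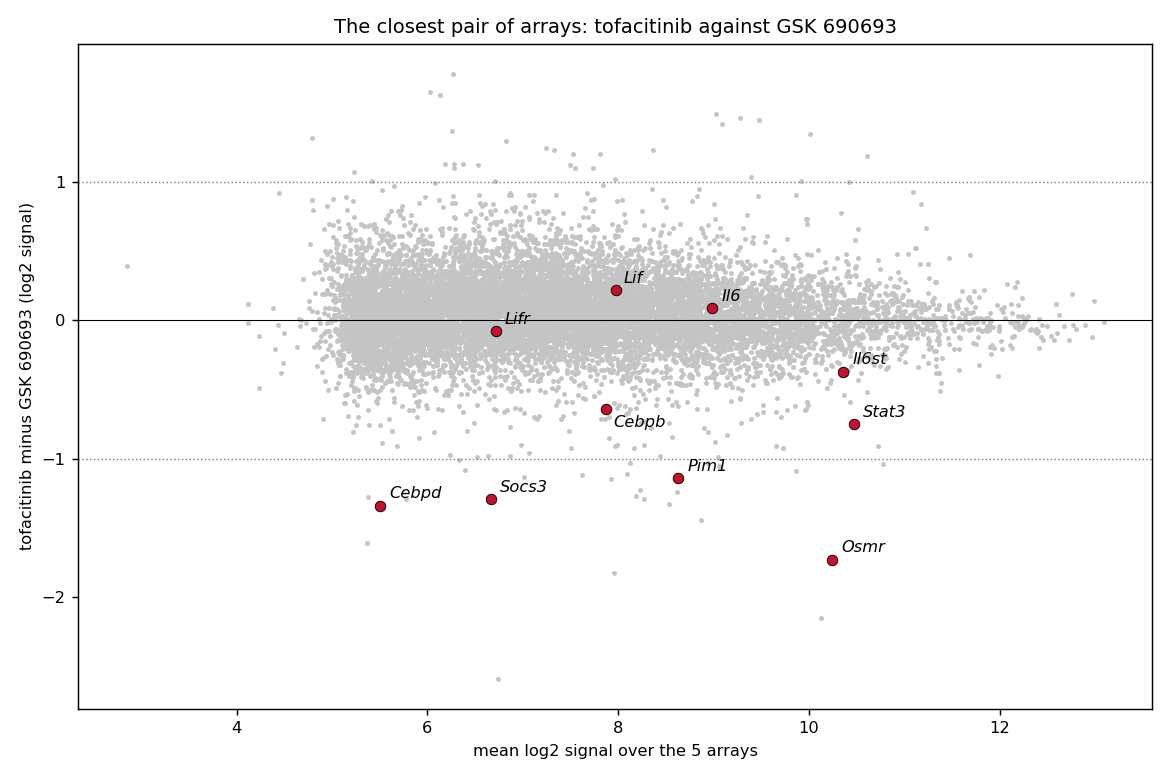
Difference in log2 signal, tofacitinib minus GSK 690693 (vertical axis), against the mean log2 signal over the 5 arrays (horizontal axis) for the tested genes (grey) and the 10 members (red). Dotted lines mark 2-fold; Osmr, Cebpd, Socs3 and Pim1 lie below the lower line, and Il6, Lif and Lifr near 0.

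Doxorubicin and Compound C, the arrays farthest apart with a standard deviation of 0.656, differed most, among the 10 members, in the C/EBP genes. For doxorubicin minus Compound C, Cebpb differed by −2.93 (7.62-fold, the 20th lowest of 12317) and Cebpd by −2.83 (7.11-fold, the 22nd). Pim1 differed by −2.43, Lif by −1.51, Socs3 by −1.43 and Stat3 by −0.55 in the same pair. The 3 receptor genes and Il6 lay between 0.08 and 0.28. The dimmer probe sets were less far apart, at 5.15 with doxorubicin and 5.46 with Compound C for Pim1 and 3.62 and 4.24 for Socs3. For tofacitinib minus doxorubicin, Cebpd and Socs3 were close, at 0.16 and −0.18, but Cebpb was 3.58-fold higher with tofacitinib, Pim1 2.51-fold higher and Osmr 3.78-fold lower. In the same pair Lif was 1.96-fold higher, Il6 1.85-fold lower and Stat3 1.53-fold lower with tofacitinib. Of the close values, both Cebpd signals lay below the array medians.

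The rest of the pathway was read from a list of 69 other genes, of which 61 passed the filter, 3 did not and 5 had no probe set with a single symbol and were not analysed here. With tofacitinib, 1 of the 61 was at least 1.5-fold higher and 2 lower, counts close to the 2.66% and 2.0% of all tested genes. The median of the 61 was −0.01. The lower genes were Stat2, a transcription factor gene of interferon signalling, and Bcl3, a gene of NF-kB regulation. Stat2 read 9.99 with Compound C, 9.67 with doxorubicin, 9.73 with GSK 690693, 8.82 with tofacitinib and 10.04 with vehicle, so tofacitinib stood alone as for Osmr. Bcl3 read 7.45 with tofacitinib and 8.45 with vehicle. The gene of the ligand IL-11, Il11, was the higher one, with 6.87 with tofacitinib and 6.18 with vehicle.

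Of the kinases that carry the signal, tofacitinib and vehicle read 10.30 and 10.26 for Jak1, 9.04 and 8.84 for Jak2 and 6.75 and 6.64 for Tyk2. Across the other compounds Jak1, Jak2 and Tyk2 lay within 0.33 of vehicle. Socs1, a second JAK inhibitor of the SOCS family, ran between 5.69 and 5.96 on the 5 arrays. Among the 14 tested inhibitors and phosphatases, 0 were 1.5-fold apart from vehicle with tofacitinib, where 2.66% of all tested genes were higher and 2.0% lower, so that few of 14 genes would be apart at those shares. Il6ra, the receptor chain specific to IL-6, read 8.59 with Compound C, 7.96 with doxorubicin, 7.89 with GSK 690693, 7.52 with tofacitinib and 7.59 with vehicle. Compound C was 2.0-fold above vehicle for Il6ra, and the other 3 compounds lay within 0.37.

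With doxorubicin, 21 of the 61 pathway genes were at least 1.5-fold lower and 3 higher, beside 14.2% and 11.5% of all tested genes, with a median of −0.18. The lower ones were 15 of 33 STAT3 target genes and 6 of 14 inhibitors and phosphatases. Of the 14 tested ligands, receptors, kinases and STATs, 0 were lower, where the share over all tested genes was 14.2%. Myc, the growth regulator, differed by −3.09, the NF-kB cofactor gene Nfkbiz by −2.76 and the survival gene Mcl1 by −2.46. Next came Ier3 (−1.99), Bcl3 (−1.93), the AP-1 subunit gene Fosl2 (−1.92), the pluripotency factor gene Klf4 (−1.81) and the deubiquitinase gene Tnfaip3 (−1.72). Gadd45b (−1.67), the SUMO ligase gene Pias1 (−1.51), the mRNA decay factor gene Zfp36 (−1.47), Junb (−1.42), Bcl6 (−1.14), the angiogenic factor gene Vegfa (−1.08) and the STAT phosphatase gene Ptpn2 (−1.07) were also at least 2-fold lower. The dimmer probe set of Mcl1 read −0.73 in place of −2.46. With tofacitinib, 1 of the same 33 STAT3 target genes was at least 1.5-fold lower and 0 higher. Those counts lay close to the tofacitinib shares over all tested genes, 2.0% lower and 2.66% higher. The median of the 33 genes was −0.12 with tofacitinib and −0.55 with doxorubicin. Stat3 itself differed from vehicle by −0.65 with tofacitinib and −0.04 with doxorubicin. The label STAT3 target is the role in the list, and whether these genes depend on STAT3 in these cells was not tested.

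With Compound C, 8 of the 61 pathway genes were at least 1.5-fold higher and 7 lower, beside 6.06% and 9.99% of all tested genes, and the median was 0.11. Besides Il6ra, the stress gene Gadd45b (1.29) and the AP-1 gene Fos (1.15) were at least 2-fold higher. The urokinase receptor gene Plaur (−1.43) and Myc (−1.05) were at least 2-fold lower. Il11 read 5.35 with Compound C and 6.18 with vehicle, and so lay on the other side of vehicle from Lif. With GSK 690693, 1 of the 61 was higher and 1 lower, close to the 2.40% and 3.21% of all tested genes, and the median was 0.01. The lower one was the G protein regulator Rgs2, at 5.40 with GSK 690693 and 6.47 with vehicle, although its dimmer probe set read −0.11.

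**Figure D5:**
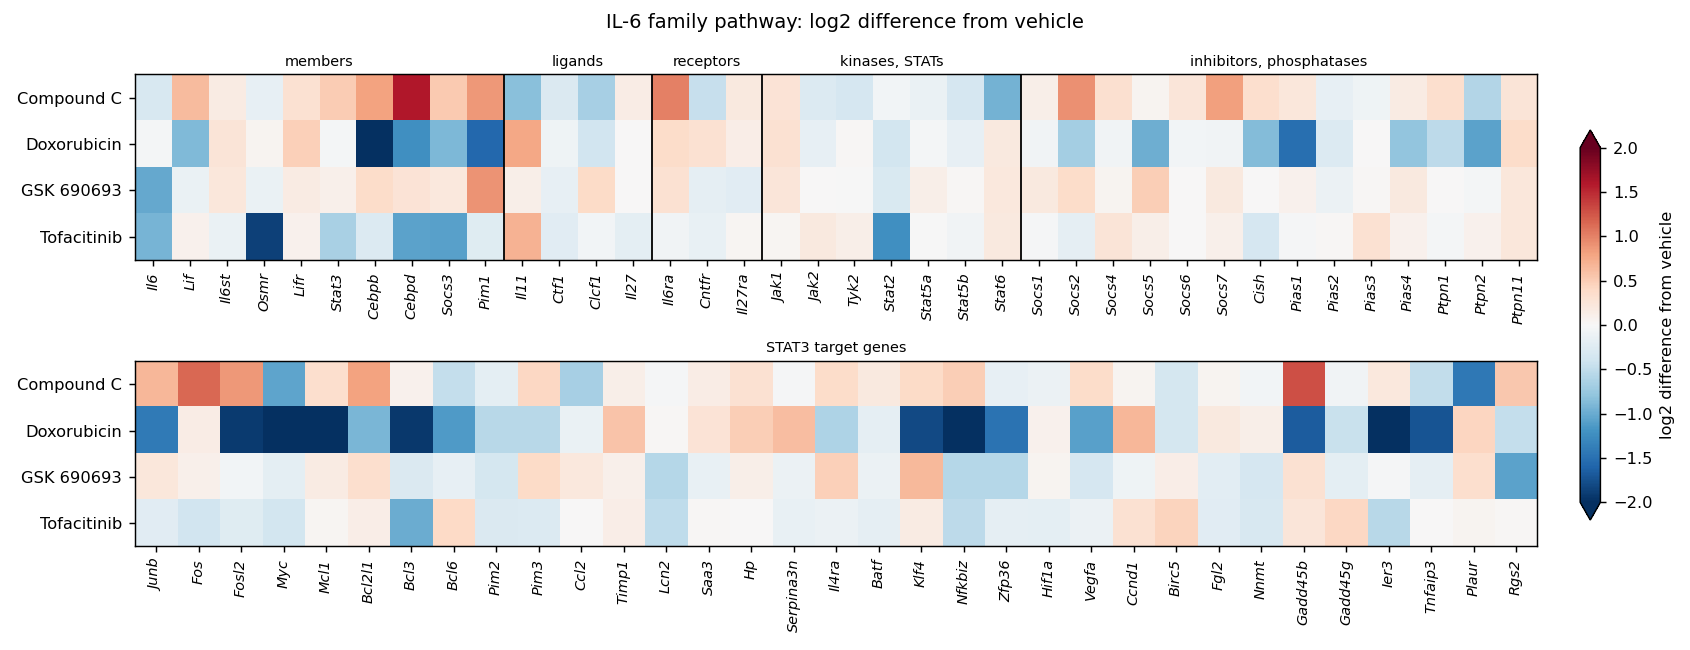
Log2 difference from vehicle (colour, blue lower and red higher, with the scale ending at 2 in each direction) for the members and the 61 tested genes of the wider pathway, in columns by role, with 1 row per compound. Doxorubicin shows dark blue in Cebpb and in target genes such as Myc and Nfkbiz, and tofacitinib in Osmr.

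For each member at least 2-fold apart from vehicle with any compound, the 3 genes with a descriptive symbol and the most similar set of 4 differences from vehicle were looked up by Euclidean distance over the 4 compounds. The 4 differences share the vehicle array, and with 12317 genes close matches are to be found for most patterns. Osmr lay closest to Xaf1 (distance 0.52), Parp12 (0.64) and Igtp (0.69), which are interferon-induced genes and differed from vehicle by −1.69, −1.28 and −1.65 with tofacitinib. Il6 lay closest to Samd5 (0.09), the glutathione peroxidase gene Gpx3 (0.15) and the proteoglycan gene Podn (0.23), with GSK 690693 differences of −0.98, −1.17 and −0.88. Irs2, the insulin receptor substrate gene, was the closest gene to both Cebpd (0.90) and Pim1 (0.57). Cebpb lay closest to Rbm12b2 (0.36), Kbtbd2 (0.39) and Ppp1r15b (0.42), with doxorubicin differences of −2.05, −2.05 and −2.10. The closest to Socs3 were Nkd2 (0.63), Gcnt2 (0.66) and Rtn4r (0.69). For Cebpd the others were Map3k8 (1.07) and Ccnl1 (1.08), and for Pim1 Brd1 (0.59) and Bach1 (0.60).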

How the data were processed

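The log2 values that the authors deposited, 1 for each probe set on an array, came from Affymetrix Expression Console 1.3.1.187, per the submitters' processing notes. How the background was corrected and the arrays were summarised and normalized is not given in the sources used here. That they are base 2 logs was read from their spread between 1.05 and 13.18. A normalization that equalises the arrays would hide a shift of most genes. No detection call was used. All 5 value columns were used, each matched to its sample by name. Of 41345 probe sets, 23521 had 1 symbol in the platform annotation, 1814 several and 16010 were not listed, and the last 2 kinds were not analysed. A gene was read from its brightest probe set by mean and tested if any array reached that array's median (5.37 to 5.44).

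From these values log2 differences were computed in Python 3.11.15 with pandas 2.3.3, and figures drawn with matplotlib 3.10.9. With 1 array per treatment there is no test. The counting step was tested on simulated data. Members, pathway list and naming rule were chosen with earlier results of these data known. The naming rule takes all members, pathway genes at least 2-fold apart from vehicle, Osm, Il11, Il6ra, Jak1, Jak2, Tyk2 and Socs1, and the 3 genes nearest to each 2-fold member. The number of arrays limits the precision. Alternatives changed the centring, normalization, reference array, probe set rule, filter, a linear offset and the fold. Promoter sequences are RefSeq's, from GRCm38.p6.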

Additional observations from a re-analysis of the deposited data

How the results depend on the processing

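Of 92 counts and medians recomputed under alternatives for the members and the pathway list, 74 stayed within 1.5 times the count or 0.1 of the median. The other 18 moved further. Only a median could be called reversed, and 0 were. Dropping the filter could not change the values of the members, since all 10 pass it. The pathway list was added to the alternatives after the data were seen. With 2-fold as the threshold, the number of members apart from vehicle was 1 with Compound C (4 at 1.5-fold), 3 with doxorubicin (5), 1 with GSK 690693 (2) and 3 with tofacitinib (5), and that of pathway genes 5 (15), 15 (24) and 1 (2) for the first 3 compounds. At 2-fold, 1.30% of tested genes were higher and 2.52% lower with Compound C, and 1.33% and 6.45% with doxorubicin. The shares were 0.187% and 0.601% with GSK 690693 and 0.0487% and 0.414% with tofacitinib. Shares over all tested genes are not given here for the other alternatives. Against the median of the other 4 arrays, GSK 690693 had 4 members apart, the members' median with tofacitinib was −0.69, and 5 pathway genes were apart with tofacitinib in place of 3. With the mean of a gene's probe sets, GSK 690693 had 1 member and 1 pathway gene apart and the doxorubicin median was −0.33. Quantile normalization gave 5 pathway genes with GSK 690693, and an offset of 32 on the linear scale gave 1, with a doxorubicin median of −0.32. With a filter at a log2 signal of 7, which leaves out Lifr, the medians were −0.88 with doxorubicin and −0.65 with tofacitinib. The 16 member differences of 1.5-fold were recomputed 112 times and kept that size 107 times. Many of the 112 could not have moved, so the 107 overstate how stable the differences are. A change of filter only decides which genes are tested, and the mean of probe sets alters only Socs3 and Pim1. The exceptions were Stat3 and Cebpd with tofacitinib (−0.58 after centring, −0.55 with the offset), Pim1 with Compound C and GSK 690693 (0.55 and 0.50 with the mean of its probe sets) and Lif with Compound C (0.57 with the offset). Against the median of the other 4 arrays, differences that were short of 1.5-fold reached it for Il6 with doxorubicin (0.59), Socs3 with Compound C (0.98) and GSK 690693 (0.66), Cebpd with GSK 690693 (0.81) and Pim1 with tofacitinib (−0.67), and Il6 with Compound C read 0.17 in place of −0.32. Centring brought Socs3 with Compound C to 0.59. The cause was not tested. No paired analysis was possible because each treatment has 1 array, and leaving out a replicate was not possible for the same reason. Without replicates or detection calls, dim signals such as those of Cebpd limit what these arrays can show.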
